A study of Synthetic plasmid and Mus musculus with 4 samples.

Results

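The H sites are 859 of the 3483 target windows of a mouse reporter library, chosen by the letter H at the start of the target name in the deposited count tables. They carried 10842 of the 45670 constructs of the library. The tables give only the letter, and from knowledge of the study it is read as DNase hypersensitive sites of heart, beside retina (R), brain (B) and liver (L). In both neural tissues tested, H sites gave less RNA than their DNA share would give, and the order of H sites in one replicate hardly carried over to the next. A few sites lay above their class in every replicate, and those are described one by one after the class as a whole.

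A DNase hypersensitive site is a stretch of chromatin open enough for the nuclease to cut, and such sites mark promoters and enhancers. Enhancers bind transcription factors that differ between cell types, so a site open in heart is often closed in neurons and glia, where cardiac factors are largely missing. A reporter assay takes the fragment out of its chromatin, so it reads what the sequence can do with the factors of the host cell.

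The study cloned sonicated C57BL/6J genomic fragments, enriched with baits around 300 bp windows, into plasmids that each carry a transcribed barcode. CD-1 retinas were electroporated ex vivo at P0 and kept 8 days in culture, and each of 3 biological replicates pooled 5 retinas. The cerebral cortex of CD-1 mice was injected stereotactically with AAV in vivo at 4 to 6 weeks of age. It was collected 4 to 5 weeks later by microdissection of GFP-positive regions, with 1 animal for each of 3 biological replicates. No other genotype, strain or drug is given in the labels, both tissues received the same library, and no sample without the library was used here. Delivery, age, culture and sequencing lane differed between the tissues, so a difference between retina and cortex cannot be told apart from a difference in these. The barcodes are not endogenous transcripts, so no marker gene can check the labelled tissue, and the R class in retina and the B class in cortex serve as the only check. The promoter of the reporter and the cell types that took it up are not given in the sources used here.

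Depth in retina ran from 7025820 to 10411511 RNA counts and from 6501061 to 12147398 DNA counts per library. The range in cortex was 4000439 to 9674859 for RNA and 3999412 to 10769648 for DNA. Of these counts, H constructs had 123786, 131231 and 204285 RNA counts in the 3 retina replicates and 781224, 1054250 and 1834545 in the cortex replicates. An H site had a median of 7 constructs (1 to 86), and its fragments a median length of 463 bp (196 to 702). The whole window was covered by 41.3% of the fragments. A construct was used in a tissue when each of its DNA libraries held at least 10 counts, which 8589 H constructs (79.2%) did in retina and 9297 (85.7%) in cortex. With at least 5 such constructs, 489 H sites could be tested in retina, 508 in cortex and 482 in one fit over both, so the other H sites enter only the sums over the class.

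The barcodes of 7 constructs of named sites are shown. They gave from 7.49% (H929 in cortex) to 97.2% (H938 in retina) of the RNA of their site, so not every site rests on its printed construct. Each is the construct with most RNA at its site, and each letter run is the transcribed tag, as deposited, from which RNA and DNA were counted. Sites H938, H162, H921 and H179 stood out in retina, and H153, H906 and H929 in cortex.
H938, retina: gctcacatcacaccc
H162, retina: ccctctcccacctct
H921, retina: aaacagacaccgaca
H179, retina: cactactccttatac
H153, cortex: aacttatcttgtcgt
H906, cortex: accgtcctaatccac
H929, cortex: gagtgggtaaccct

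The first question was how much RNA the H class gave for its DNA. In retina, H constructs gave 1.75%, 1.85% and 1.95% of the RNA counts of all passing constructs in the 3 replicates, and 23.9% ± 0.0254 of the DNA counts (SD, n = 3). The RNA share divided by the DNA share was 0.0731, 0.0774 and 0.0814, a mean of 0.0773 ± 0.00413 (SD, n = 3). The 3 values lay within a narrow range and far below the 3.77 ± 0.0349 of R constructs. In cortex, H constructs gave 19.52%, 20.04% and 18.97% of the RNA counts. The ratio was 0.818, 0.841 and 0.796 there, a mean of 0.818 ± 0.0226 (SD, n = 3), against 1.66 ± 0.0778 for B constructs. The H ratio in cortex was 10.6 times that in retina (two-sided exact permutation test, p = 0.1, the smallest that 3 against 3 allow). These shares add up over the classes of a tissue, so the low H share in retina stands beside the 94.2% of RNA counts that R constructs gave.

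The H class lay close to the L class, the other class from outside the nervous system. The H ratio was 1.27, 1.08 and 1.06 times the L ratio in the retina replicates and 1.06, 1.05 and 1.06 times in the cortex replicates. It was higher in 3 of 3 replicates of each tissue (two-sided exact permutation of signs, p = 0.25, the smallest that 3 pairs allow, 0.3 after adjustment over 6 class pairs). H was 0.865 ± 0.00778 times B in retina and 0.494 ± 0.0370 times B in cortex, lower in 3 of 3 replicates of each (exact permutation p = 0.25, adjusted 0.3). In cortex H was 1.00 ± 0.0254 times R, higher in 1 of 3 replicates (exact permutation p = 1.0).

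**Figure D1:**
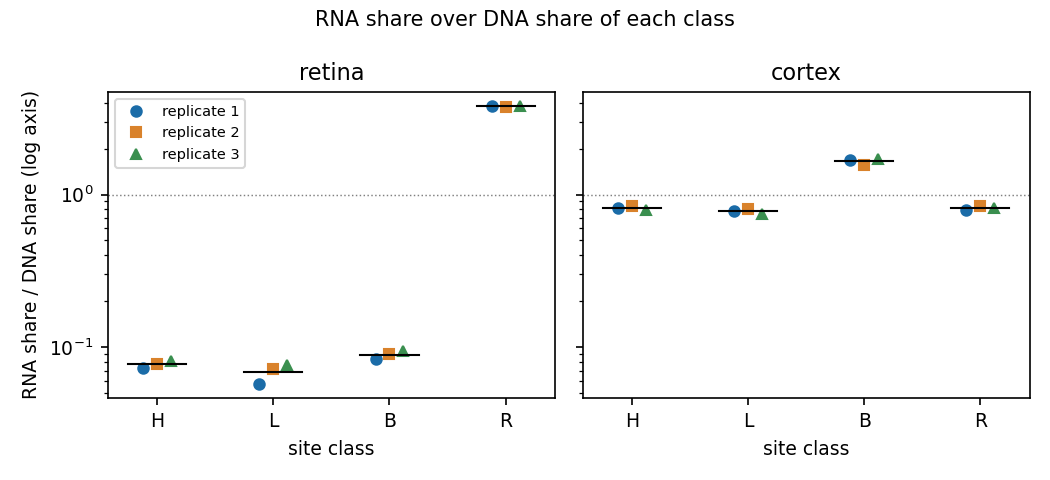
RNA share divided by DNA share of each site class (H, L, B, R) in retina and cortex, on a log axis, with a point for each of 3 replicates, a bar at their mean and a dotted line at equal shares. The H points lie at 0.0731 to 0.0814 in retina and 0.796 to 0.841 in cortex, close to L in both tissues.

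Most H constructs gave no RNA in retina. RNA was counted for 9.13%, 13.1% and 12.0% of them in the 3 replicates. Over the 3 replicates, 6119 constructs (71.2%) never had RNA, 2052 (23.9%) had it in 1 replicate, 364 (4.24%) in 2 and 54 (0.629%) in all 3. Where RNA was seen its median was 37, 33 and 45 counts in the 3 replicates, beside median DNA counts of 233, 111 and 209. Barcode reads were not collapsed by molecular identifiers here, so these counts are not numbers of RNA molecules. A construct with RNA in one replicate had RNA in another in 14.9% to 22.2% of cases, over the 6 ordered pairs, against 8.18% to 12.3% for a construct without it. For R constructs these shares were 63.1% to 76.5% and 13.4% to 22.7%.

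In cortex RNA was counted for 56.7%, 57.3% and 67.5% of H constructs. There 1172 constructs (12.6%) had no RNA in any replicate, 2287 (24.6%) had it in 1, 2921 (31.4%) in 2 and 2917 (31.4%) in all 3. The share in all 3 was 30.6% for L, 31.4% for R and 38.0% for B constructs. RNA in one replicate went with RNA in another in 64.9% to 77.2% of H constructs, against 39.8% to 55.2% of those without.

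**Figure D2:**
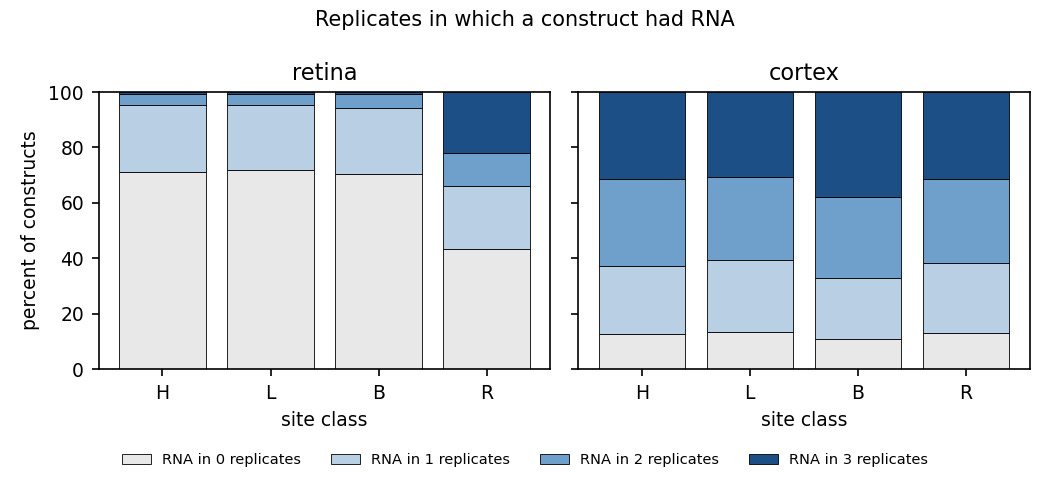
Percent of passing constructs of each class with RNA counts in 0, 1, 2 or 3 replicates, in retina and cortex, as stacked bars to 100. In retina 71.2% of H constructs had no RNA and 0.629% had it in all 3 replicates, while in cortex 12.6% had none and 31.4% had it in all 3.

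Detection moved with the amount of DNA. In retina, RNA was counted for 5.76% ± 0.988 of the H constructs in the lowest of 4 bins of DNA counts (36 to 310 over 3 libraries) and 19.4% ± 3.72 in the highest (1020 to 10366; SD, n = 3). In cortex these shares were 33.9% ± 4.86 and 87.4% ± 5.00. The RNA share over the DNA share, set against all H constructs, was 1.45 ± 0.134 in the lowest retina bin and 0.895 ± 0.0329 in the highest, so RNA per DNA was not higher where DNA was high.

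Fragment length went with RNA per DNA in retina. There, fragments that held the whole window had RNA in 11.4% of cases per replicate and partial fragments in 11.4%. Their RNA per DNA, relative to the class, was 1.07 ± 0.0502 and 0.956 ± 0.0336. Fragments of 500 bp or more were at 1.14 ± 0.0494 in retina, above the shorter ones in 3 of 3 replicates (0.940 ± 0.00751 from 400 bp to under 500 bp, 0.933 ± 0.107 below 400 bp). In cortex RNA was counted for 65.3% ± 5.77 of fragments below 400 bp and 58.3% ± 6.63 of those of 500 bp or more, and RNA per DNA of the 3 length classes, longest first, lay at 1.00 ± 0.0321, 0.999 ± 0.0247 and 0.999 ± 0.0389. Plus and minus fragments were at 1.02 ± 0.103 and 0.983 ± 0.0912 in retina and at 0.993 ± 0.00620 and 1.01 ± 0.00545 in cortex.

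Whole sites were compared next by a log2 RNA/DNA with a prior count of 2, set against the median H site of the same replicate. This difference is called the excess, and 0 is the median H site. Among H sites in retina its SD was 3.04, 2.80 and 3.13 in the 3 replicates, against 1.12, 1.10 and 0.962 in cortex. Little of that spread came back in another replicate. Across 489 sites Pearson's r between retina replicates was 0.034, 0.075 and 0.161, and across 508 sites in cortex it was 0.124, 0.039 and 0.136. The sites of a pair of replicates share the library, its DNA depth and its constructs, so these correlations are descriptions. The same measure was 0.730 to 0.748 for R sites in retina and 0.504 to 0.603 for B sites in cortex. Among constructs whose fragments overlap by at least 0.8 of each, the summed values of near-identical H fragments correlated at 0.029 over 20466 pairs in retina and 0.024 over 23973 pairs in cortex. For R pairs in retina it was 0.808 and for B pairs in cortex 0.323.

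**Figure D3:**
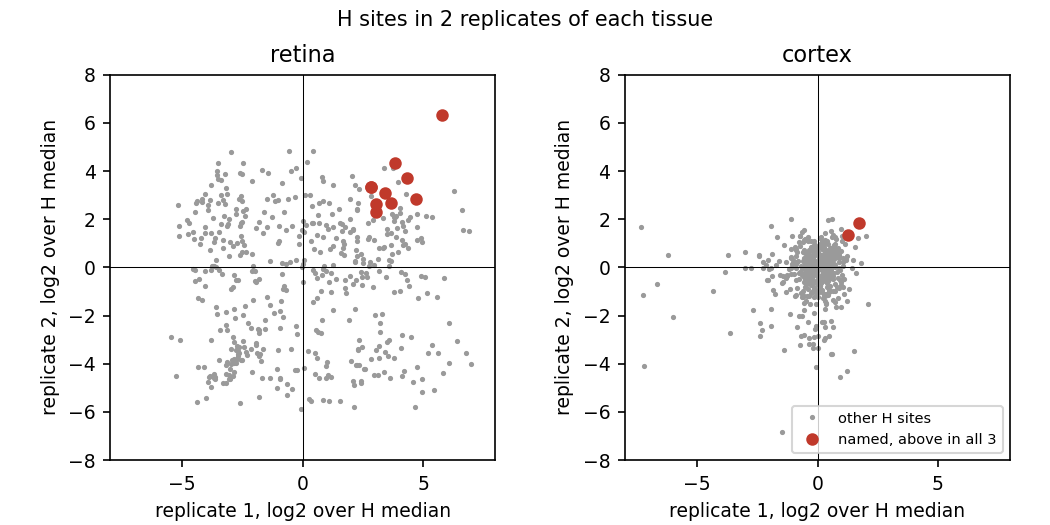
Excess of each H site, as log2 RNA/DNA over the median H site, in replicate 1 (horizontal) and replicate 2 (vertical) of retina (489 sites) and cortex (508 sites), with the named sites that lay above in all 3 replicates in red. The clouds have no clear slope (r = 0.034 in retina, 0.124 in cortex), and the red sites lie at the upper right.

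No H site passed the test of RNA against DNA in retina in either direction, which 8.81% of all 2031 sites did upward and 0.148% downward (edgeR quasi-likelihood test, adjusted p under 0.05). At an unadjusted p under 0.05, 1 of 489 H sites was higher and 44 were lower. The share of all sites at this unadjusted threshold is not given here, so these counts cannot be read as a trait of H sites. DESeq2 called 3 higher (10.3% of all sites) and 131 lower (26.8% of H sites, 21.6% of all sites). The fitted log2 RNA/DNA of H sites had a median of -2.51 (quartiles -6.01 and -0.90), against -1.96 over all sites, where 0 is the level set by the scaling of the libraries. Scaling by total library size moved the median of all sites to -5.49. Leaving out the replicate block moved it to -0.47, and that of H sites to -0.74. Fitted values below are read against the class median. In cortex 1 H site, H929, was called higher and 0 lower, against 2.99% and 0.0% of all 2108 sites (edgeR). At an unadjusted p under 0.05, 22 H sites were higher and 18 lower, again without the share of all sites. DESeq2 called 7 higher (4.27% of all sites) and 6 lower (1.23% of all sites). The cortex median was -0.07 for H and -0.09 for all sites.

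Sites that repeated were counted by an excess of at least 1, or 2-fold over the median H site, in all 3 replicates. In retina 40 of 489 H sites (8.18%) did so. Of all 2031 sites, 19.1% lay as far above the same H level, made up of 36 of 626 L sites (5.75%), 49 of 439 B sites (11.2%) and 262 of 477 R sites (54.9%). A further 114 H sites were that high in 2 replicates, 218 in 1 and 117 in none. Sites at least 1 below in all 3 numbered 47 (9.61%, against 8.47% of all sites). The members nearest the limit were H6 and H261, with smallest excesses of 1.07 and 1.04, and just outside lay H192 at 0.99 and H499 at 0.97.

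The retina sites that repeated above had more constructs and more DNA than the others. Their median was 21 constructs (6 to 75) and 16882 DNA counts, against 12 constructs and 9953.5 DNA counts for sites in neither group. The sites below had a median of 6 constructs and 4777 DNA counts. In the 40 sites the single strongest construct gave a median of 55.4% of the RNA, over 50% of it in 25 sites and over 90% in 3. In 21 of them no construct had RNA in all 3 replicates, and in 7 at least 2 constructs did. Without the strongest construct of every H site, 20 of the 40 still repeated above and 39 kept a mean above the H median. The reference fell as well, with a median fitted log2 of H sites of -4.04 against -2.51 with all constructs. Against the lower reference 78 H sites repeated above, so these counts do not show that a site is independent of its strongest construct. The part of depth in this count was not tested.

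H179 had the highest smallest excess in retina. Its window lies on chromosome 1 from 188223766 to 188224065 (mm9). RNA counts were 297, 731 and 1388 on 2772, 1194 and 2463 DNA counts in the 3 replicates. The excess was 3.84, 4.35 and 4.60, all 3 well above the class (mean 4.26 ± 0.39, SD, n = 3). Of its 11 constructs 8 had RNA, but 7 of these in 1 replicate only. The strongest, whose barcode is printed above, gave 64.5% of the RNA, with 1, 731 and 827 counts, and 3 constructs had none. The fitted log2 was 2.18 (SE 1.51, edgeR adjusted p = 0.459), and without the strongest construct the excess was 5.89, -2.06 and 6.07.

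H938, on chromosome 10 from 5570626 to 5570925, rested on 1 construct. RNA counts were 461, 815 and 2163 on 3064, 2064 and 2194 DNA counts, an excess of 4.32, 3.72 and 5.41 (mean 4.48 ± 0.86). The strongest construct, a 544 bp plus-strand fragment that starts 300 bases before the window, had 427, 752 and 2163 counts, 97.2% of the RNA of the site. Of the 13 constructs, 10 had no RNA in any replicate, among them 6 that hold the whole window. None overlapped the strongest one by 0.8 of each length. The fit gave a log2 of 2.37 (SE 1.19, unadjusted p = 0.0472, adjusted p = 0.271 in edgeR), the only H site higher at under 0.05 before adjustment. It was called in DESeq2 (adjusted p = 0.0133) and in edgeR without the replicate block (adjusted p = 0.0456). Leaving the strongest construct out turned the fitted log2 to -2.27 and the excess to 2.72, 1.99 and -1.93.

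H921, on chromosome 4 from 132781966 to 132782265, had RNA counts of 407, 844 and 232 on 987, 351 and 1230 DNA counts, the fewest DNA counts of the named retina sites. Its excess of 5.78, 6.32 and 3.03 was higher in replicates 1 and 2 than in replicate 3. Its strongest construct gave 84.1% (407, 608 and 232 counts), another had 236 counts in replicate 2, and the other 4 had none. The fitted log2 was 2.96 (SE 2.31, edgeR adjusted p = 0.505), and without the strongest construct the excess was 0.37, 6.50 and -0.93.

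The other 7 named retina sites spanned single-construct sites and sites where many constructs had some RNA. H162, on chromosome 1 from 92418886 to 92419185, had 567, 563 and 1149 RNA counts on 5847, 2934 and 5433 DNA counts, and an excess of 3.69, 2.68 and 3.19. A single construct of 476 bp over the whole window gave 94.0% of it, with 553, 507 and 1083 counts. The 5 fragments that overlap it by at least 0.8 of each had 3 RNA counts in all on 1337 DNA counts, and 3 of the 5 had none. All 5 lay on the minus strand and the strongest on the plus strand. So near-identical stretches of DNA in opposite orientations gave unlike RNA, and barcode cannot be told apart from orientation here.

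H859, on chromosome 1 from 133585086 to 133585385, had 360, 977 and 2260 RNA counts (excess 2.85, 3.32 and 4.18). Its strongest construct gave 67.6% of this RNA, and 11 of its 20 constructs had none. H916, on chromosome 3 from 115888186 to 115888485, had 1610, 938 and 1441 (excess 4.72, 2.83 and 3.05). At H916 the strongest construct had RNA in replicate 1 only (1445 counts), and no construct had RNA in all 3. H415 had 520, 1574 and 2333 RNA counts (mean excess 3.23 ± 0.33), with 0, 234 and 2188 of them from its strongest construct.

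H220, on chromosome 15 from 33356606 to 33356905, had the most RNA counts of any H site in retina, 1372, 2005 and 2438 on 21938, 10641 and 19931 DNA counts. Its excess of 3.05, 2.65 and 2.40 varied little between replicates (SD 0.33). Its 39 constructs shared the RNA more evenly, with 13 of them carrying RNA and the strongest giving 27.0%. Most of the 13 had RNA in a single replicate, and only the strongest had it in all 3 (442, 6 and 1122 counts). Without that one the excess was still 4.45, 4.51 and 4.08, measured against a median that also fell. H373, on chromosome 8 from 95565126 to 95565425, was alike in this, with 1125, 1476 and 2820 RNA counts, an excess of 3.03, 2.30 and 2.95, and 14 of 34 constructs with RNA. Few of those 14 had RNA in all 3 replicates. H681, on chromosome 19 from 40406466 to 40406765, had 560, 830 and 884 RNA counts and an excess of 3.43, 3.07 and 2.49. Its strongest construct gave 61.7% of this RNA, with 0, 676 and 726 counts, and 19 of its 24 constructs had none. None of these 10 sites passed the edgeR test in retina, with fitted log2 values from 0.61 for H220 to 2.96 for H921.

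The 54 H constructs with RNA in all 3 retina replicates came from 44 sites. They gave 9.32% ± 1.33 of the H RNA and 1.72% ± 0.102 of the H DNA (SD, n = 3), and their median DNA sum was 1585 against 564 for all H constructs. In cortex the RNA per DNA of the same constructs was 0.856, 1.10 and 1.07 times that of the H constructs they were set against. Of the 54, 36 (66.7%) had RNA in all 3 cortex replicates, against 34.5% of the H constructs in that comparison. Over all 9297 H constructs that passed in cortex the share was 31.4%. The part of their higher DNA counts in this share was not tested. The edit distance to the nearest of the barcodes with at least 20000 RNA counts had a median of 5 for constructs with RNA in 0, 1, 2 and 3 replicates alike, and barcodes within 2 edits of such a strong barcode numbered 3 of 6119, 2 of 2052, 0 of 364 and 1 of 54 in this order.

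In cortex only 2 of 508 H sites (0.394%) lay at least 1 above the median H site in all 3 replicates, against 2.99% of all 2108 sites (0 L, 8 R and 53 B sites). A further 11 did so in 2 replicates, 78 in 1 and 417 in none. Just outside lay H681 and H557, with smallest excesses of 0.71 and 0.68. Sites at least 1 below in all 3 numbered 4 (0.787%, against 1.04% of all sites).

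H906, on chromosome 14 from 73265386 to 73265685, had 660, 939 and 1241 RNA counts on 263, 677 and 656 DNA counts. Its excess was 1.70, 1.83 and 1.13 (mean 1.55 ± 0.37). RNA came from 4 of its 5 constructs, and the strongest, with 444, 394 and 404 counts, gave 43.7%. The 1 fragment that overlaps it by 0.8 of each, read in the opposite orientation, also had RNA in all 3 replicates, 1053 counts on 269 DNA counts. The construct without RNA is the one that reaches farthest past the end of the window and holds 153 of its 300 bases. The fitted log2 was 1.56 (SE 0.63, edgeR adjusted p = 0.350), and too few constructs passed in retina to test the site there.

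H153, on chromosome 1 from 12761586 to 12761885, had 977, 1579 and 3550 RNA counts on 534, 1605 and 1174 DNA counts. Its excess was 1.25, 1.33 and 1.81 (mean 1.46 ± 0.30), and all 7 constructs had RNA, 4 of them in all 3 replicates. The strongest gave 45.4% of it, with 351, 687 and 1737 counts, and without it the excess was 1.03, 1.09 and 1.41. The fitted log2 was 1.47 (SE 0.44, edgeR adjusted p = 0.123; 0.00858 in DESeq2 and 0.0352 in edgeR without the replicate block). In retina the site had 0, 11 and 0 RNA counts and an excess of -2.97, -0.89 and -4.33, below the median H site in all 3.

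**Figure D4:**
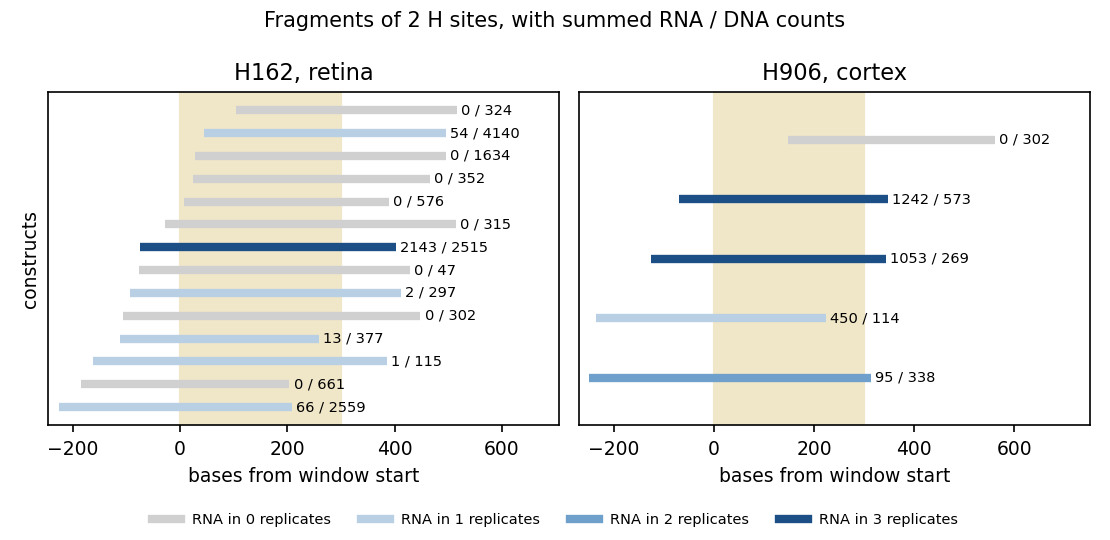
Fragments of H162 in retina and H906 in cortex as lines placed in bases from the start of the 300 bp window (shaded), darker with RNA in more replicates, with summed RNA and DNA counts at the right. At H162 1 fragment carries 94.0% of the RNA while its near neighbours have almost none, and at H906 4 of 5 fragments have RNA.

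H929 was the H site with most RNA in cortex and the only one called by edgeR in either tissue. Its window lies on chromosome 7 from 122610326 to 122610625. RNA counts were 11931, 11025 and 23124 on 7503, 21438 and 15970 DNA counts, and the excess was 1.05, 0.40 and 0.75. Of its 59 constructs 54 had RNA, 31 of them in all 3 replicates, and the strongest gave 7.49% of the RNA. The fitted log2 was 0.73 (SE 0.18, edgeR adjusted p = 0.0293) and 0.94 without the strongest construct (adjusted p = 0.00245). The call was lost without cortex replicate 1 (adjusted p = 0.231) or replicate 3 (0.226), with library sizes set on H and L sites (0.0726) and with total library size (0.222). In retina the excess of H929 was 1.37, 1.23 and 0.76, and its fitted log2 of -0.98 did not pass (edgeR adjusted p = 0.488).

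The 4 cortex sites below the class had 5 to 15 constructs. H452, on chromosome 4 from 149223166 to 149223465, had 131, 153 and 239 RNA counts on 657, 1318 and 1109 DNA counts, an excess of -1.93, -1.73 and -1.99. H503, on chromosome 12 from 86536126 to 86536425, lay at -2.37, -2.87 and -1.57. H469, on chromosome 19 from 45101786 to 45102085, had 74, 0 and 5 RNA counts and an excess of -1.48, -6.83 and -5.85. H573, on chromosome 10 from 85629626 to 85629925, lay at -1.13, -1.92 and -1.14 in cortex and at 4.73, 1.15 and 0.64 in retina. None was called lower by edgeR (adjusted p of 0.418, 0.575, 0.358 and 0.155 in this order), and DESeq2 called H469 and H573.

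**Figure D5:**
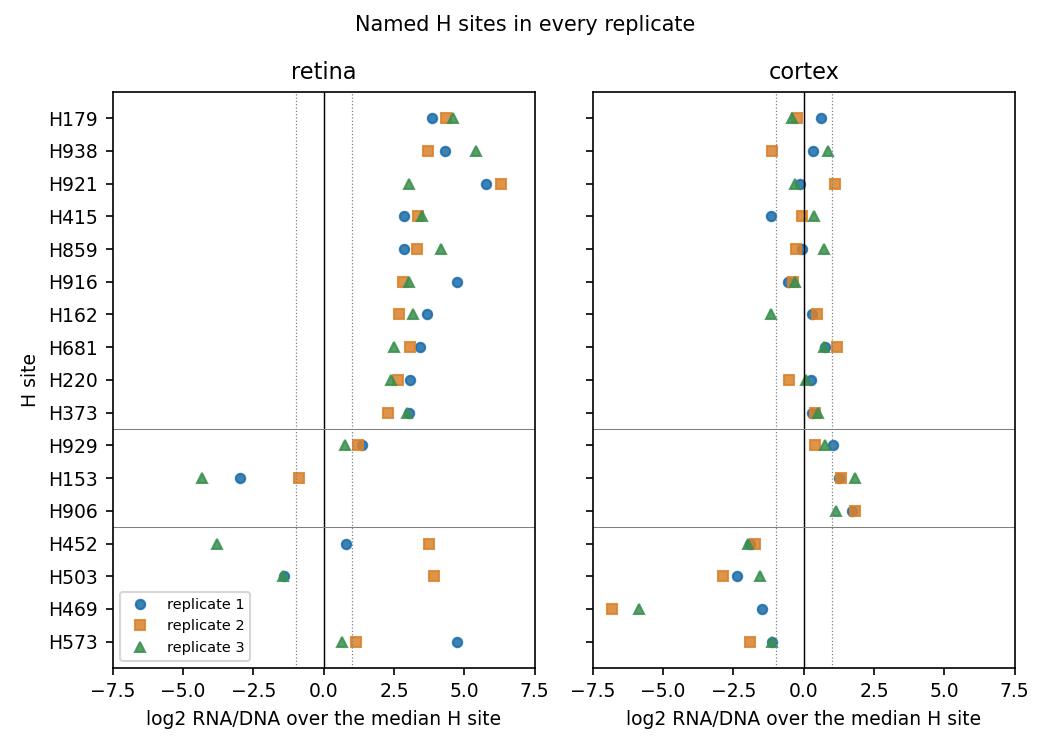
Excess of each named H site in every replicate (marker shape and color) in retina and cortex, with sites above the class in retina at the top, H929 and the sites above the class in cortex next, and the sites below the class in cortex at the bottom. Lines mark 0 and dotted lines 1 and -1. The retina sites lie right of 1 in retina and around 0 in cortex, and only H681 and H373 of them are right of 0 in all 3 cortex replicates.

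The sites that repeated above in retina had cortex values near the class median. Their median cortex excess was -0.05, against -0.06 for sites in neither retina group and -0.30 for the sites that repeated below. Of the 40, 10 (25%) lay above the H median in all 3 cortex replicates, as did 75 of 485 sites with values in both tissues (15.5%). The mean excess in retina and in cortex correlated at r = 0.116 across those 485 sites, which share their constructs in both tissues. No site lay at least 1 above in all 6 replicates. Above the H median in all 6 lay 19 of the 485, where 5.06% of the 2015 sites of all classes did. Below it in all 6 lay 14 of the 485, for which the share of all sites is not given here.

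H681 led the 19 sites, with cortex RNA counts of 3016, 6916 and 7229 on 2329, 7893 and 5132 DNA counts and a cortex excess of 0.75, 1.17 and 0.71. It was near the threshold in cortex (log2 0.88, SE 0.23, edgeR adjusted p = 0.054; 0.00624 in DESeq2). Next came H667, H294, H799, H929, H581 and H373, whose smallest excess over the 6 replicates was 0.63, 0.46, 0.44, 0.40, 0.39 and 0.30. They are shown as the head of the list of sites above in all 6, chosen after their values were seen.

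The difference between the tissues was tested as an interaction over 12 libraries in 482 H sites. Its fitted log2, retina minus cortex, had a median of -2.44 over H sites (quartiles -5.19 and -0.73) and -1.80 over all sites. Here 0 is the level set by the scaling, so a call is against that level and not against the median H site. No H site was called higher in retina (1 at an unadjusted p under 0.05), against 8.35% of all 2000 sites. DESeq2 called H407, H916 and H938 (10.2% of all sites). Higher in cortex were 24 H sites, 4.98% of the 482 against 5.0% of all 2000 sites (edgeR, adjusted p under 0.05). DESeq2 called 161, 33.4% of H sites where it called 28.8% of all sites. The count of 24 was 0 with any single cortex replicate left out, when 0.35% to 0.45% of all sites were called. It was 52 to 69 with a retina replicate left out, when 9.4% to 14.0% of all sites were called. Of the 24 sites, 19 had no RNA count in retina at all.

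H437, on chromosome 9 from 104032506 to 104032805, had the largest such difference by fitted log2. It had 0 RNA counts in every retina replicate on 3769, 1531 and 2946 DNA counts, and 1163, 4397 and 1580 RNA counts in cortex on 1110, 2885 and 1922 over its 13 cortex constructs. Its fold was taken over the 12 constructs that passed in both tissues, against the class level of each tissue. A limit of 3 counts summed over the RNA libraries of retina stood in for 0 counts. At this limit the RNA per DNA of H437 was 335-fold lower in retina relative to the class. Its fitted log2, which is on the scale of the fit and not relative to the class, was -14.42 (SE 3.12, edgeR adjusted p = 0.0180). The limit covers counting error of reads only. H constructs with RNA in retina had medians of 37, 33 and 45 counts, so such folds are no bounds on RNA molecules. At the same limit H376, on chromosome 10 from 9322666 to 9322965, was 169-fold lower and H640, on chromosome 11 from 81875786 to 81876085, 134-fold. H141, on chromosome 9 from 67413826 to 67414125, was 145-fold lower and H421, on chromosome 4 from 94469986 to 94470285, 137-fold. All 5 had no retina RNA. By the fold at this limit H752, also without retina RNA, lay among them at 157-fold lower. H620 was 388-fold lower, but this value uses its 1 retina count and not the limit of 3. It is therefore not ranked against the folds of sites with 0 counts. H752 and H620 were named after their values were seen. The 5 sites were not all strong in cortex, where the excess was 0.45, 1.96 and -0.07 for H437 but 0.23, 0.77 and -1.83 for H376.

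Sites without retina RNA had few constructs. They numbered 24 of 489 (4.91%), with a median of 6 constructs (5 to 12) and 4347 DNA counts, against 12 constructs and 9677 DNA counts over all tested H sites. The share of sites of all classes without retina RNA is not given here. All 24 had RNA in cortex, where their median excess was -0.31, and no H site tested in cortex was without RNA there. Among the 24 sites called higher in cortex, 2 had more than 1 retina count. H177, on chromosome 9 from 24701166 to 24701465, had 19, 58 and 147 RNA counts in retina and 3886, 5089 and 10472 in cortex. Its RNA per DNA was 11.5-fold lower in retina relative to the summed class. The fitted log2 is on another scale, where the median H site lay at -2.44, and was -4.09 (SE 0.90, edgeR adjusted p = 0.0130). H371, on chromosome 8 from 23576286 to 23576585, had 12, 23 and 10 against 1741, 2303 and 3076, 20.3-fold lower relative to the summed class. Its fitted log2, on the scale of the fit, was -4.59 (SE 1.30, edgeR adjusted p = 0.0394). H177 and H371 were singled out after their values were seen.

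The H sites were also checked for neighbours in the library. A window could be placed for 775 of the 859. Over all classes 304 of the 3483 sites had no placed window, 84 of them H sites, so R, B and L windows were missing as well. None of the 775 overlapped a placed window of another class or lay within 1000 bp of one, and the median distance to the nearest was 340320 bp. For the named sites the nearest placed window of another class was at least 58620 bp away, so none of their fragments reaches a placed R, B or L window.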

How the data were processed

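Per the file headers, the count tables the authors deposited hold unnormalized barcode counts of every construct, with 3 RNA and 3 DNA columns in a tissue. They were used as deposited. A second deposited table gives for each barcode its fragment position, length and bases within the window. The submitters' processing notes list build mm9 and, without saying what each did, bedtools 2.22.1, SAMtools 0.1.19, Bowtie2 2.1.0 and FastQC. Positions are counted from 1. No mm9 genome was used, so fragment sequences and gene annotation are not given.

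Counts were summed per site over constructs with at least 10 counts in each DNA library, with at least 5 constructs. RNA was tested against DNA over all sites of the 4 classes by the robust quasi-likelihood test of edgeR 4.0.16 (R 4.3.3) with trimmed mean scaling, Benjamini-Hochberg adjustment, a threshold of 0.05 and the replicate as a block. The pairing comes from the labels, which give both nucleic acids for each replicate, and not from the values, since RNA and DNA deviations correlated only at -0.0432 to 0.0186. DESeq2 1.42.0 and Python 3.11.15 with scipy 1.17.1 served for the rest. The SE printed with an edgeR log2 is the size of that log2 divided by the square root of its F statistic. It is not a separately estimated standard error, and at sites without retina RNA it moves with the prior count of the fit. Intervals and the floor of 3 counts cover counting error only.

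The members and the rules for naming sites were chosen with earlier results of these data known. Named were H sites past the threshold in a tissue, the 10 per tissue with the largest smallest excess, up to 5 below the class in cortex, the 5 largest tissue differences per direction, and the site with most RNA per tissue. H162 is drawn for its fragments and was picked for this after its values were seen.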

Additional observations from a re-analysis of the deposited data

Results flagged for a closer look

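Among H sites the difference between retina and cortex passed the interaction test in 24, all higher in cortex. This is 4.98% of the 482 H sites, against 5.0% of all 2000 sites. The test is against the level set by the scaling, where the median fitted log2 was -2.44 over H sites and -1.80 over all sites. The largest fitted log2 differences, retina minus cortex, were -14.42 for H437, -13.53 for H376, -13.42 for H640, -13.32 for H141 and -13.20 for H421 (edgeR adjusted p of 0.0180, 0.0282, 0.0233, 0.0248 and 0.0222). These 5 sites had no RNA count in any retina library, so the fitted sizes depend on the prior count of the fit and are no bounds. The folds given with the sites were taken at a limit of 3 summed counts. That limit covers counting error of reads only, so they are no bounds on RNA molecules either. Without cortex replicate 1, 2 or 3 the adjusted p of H437 was 0.0879, 0.0956 and 0.0732, and none of the 24 sites was then called.

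Constructs left out by the minimum of 10 DNA counts also had RNA. In retina 159 of the 2253 H constructs left out (7.06%) had RNA, 14543 counts in all. In cortex 570 of 1545 (36.9%) had RNA, 54310 counts in all. No library without the reporter was used here to set a background for them.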

How the results depend on the processing

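Counts of called H sites depended on the method and the replicates, and the causes were not tested. DESeq2 called 3 sites higher and 131 lower in retina, 7 and 6 in cortex, and 3 higher in retina and 161 higher in cortex in the tissue comparison. Without the replicate block, edgeR called 1 higher (H938, 9.7% of all sites) and 33 lower in retina (5.56%), and 4 higher in cortex (3.18%). It also called 1 higher in retina than cortex (9.55%) and 47 the other way (8.6%). Leaving out the block changed no other count by over 1.5 times. Total library size gave 253 lower in retina (45.5% of all sites), and 0 higher (2.47%) and 4 lower (0.854%) in cortex. With it 254 were higher in cortex than retina (48.9% of all sites). Scaling on H and L sites gave 0 higher (2.8% of all sites) and 1 lower (0.0474%) in cortex, and 1 higher in retina than in cortex (9.1%). At least 10 constructs gave 1 lower in retina (0.314% of all sites), 3 higher (3.87%) and 1 lower (0.149%) in cortex, 6 higher in cortex than retina (2.59%), and 21 (retina) and 0 (cortex) repeating above. At least 3 constructs gave 44 higher in cortex than retina (6.87% of all sites) and 63 repeating above in retina. Without the construct with most RNA of every site, 87 were lower in retina (14.5% of all sites), 78 repeated above there, and the retina RNA share over DNA share was 0.0438 ± 0.00859. An excess of 0.5 or 2 gave 63 or 16 repeating sites in retina and 14 or 0 in cortex. For repeating sites the share of all sites is given only under the main rule (19.1% in retina, 2.99% in cortex). Leaving out 1 replicate gave 1 to 3 higher (2.32% to 3.7% of all sites) and 0 to 3 lower (0.0% to 0.38%) in cortex, 0 to 69 higher in cortex than retina (0.35% to 14.0%), and 76 to 79 (retina) and 5 to 6 (cortex) repeating above, where fewer replicates must pass. Alternatives chosen after seeing the data combined the scaling on H and L sites with others. They gave 2 higher in retina without the top construct (10.2% of all sites) or without the block (10.0%). In cortex they gave 2 higher without the block (2.99%) or 0 to 2 with 1 replicate left out (2.13% to 3.37%). Among 42 values of named sites, 18 moved by over 1 SD without the top construct and 5 with a prior count of 0.5 or of 8. Of 252 such alternative values 20 changed sign, none of them in a tissue where the site repeated above or below its class. One of the 20, H921 in cortex without its top construct (-2.07), moved by over 1 SD. Fitted values in retina without the top construct turned to -2.27 for H938 and -5.13 for H921, which DESeq2 had called higher. H constructs had a median of 233, 111 and 209 DNA counts in retina, which limits single constructs.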
